A study of Mus musculus with 96 samples.

Results

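The basement membrane gene loci are the 5 stretches of the mouse genome that hold Col4a1 and Col4a2, Lama1, Lamb1, Lamc1 and Sparc. Their members are the GATA6 binding regions whose summit lies in a fixed window around these genes, on the mm10 build. Of the 42403 GATA6 binding regions of the deposited table, 117 lay in these windows. The Col4a1/Col4a2 window (chr8:11100000-11550000) held 23 regions, the Lama1 window (chr17:67590000-67930000) held 26, the Lamb1 window (chr12:31160000-31430000) held 17, the Lamc1 window (chr1:153110000-153440000) held 40 and the Sparc window (chr11:55290000-55530000) held 11. The windows were set by position and not by binding values.

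The data are ChIP-seq profiles of GATA6, SOX17, OCT4, SOX2 and ESRRB, with input chromatin, in KH2 mouse ES cells (strain C57BL/6 x 129/Sv) that carry a doxycycline-inducible gata6 expression cassette. Cells were profiled without Dox (day 0) and at 8 h, 16 h, day 1, day 2 and day 4 of exposure to 1 µg/mL Dox, on MEF feeders with LIF. XEN cells, a line of extraembryonic endoderm stem cells (strain CD1), were profiled without Dox and without LIF for GATA6, SOX17, OCT4, SOX2 and input. In a second experiment, siRNA against oct4 or a control siRNA was brought into the inducible ES cells by nucleofection, Dox was given at plating, and GATA6 and SOX17 were profiled 48 h later. All cells were separated from feeders before fixation with DSG and PFA. In the inducible cells Gata6 comes from an integrated transgene as well as from the endogenous gene. The labels do not name the clone of the time course, whereas the knock-down was done in 1 clone. The XEN cells differ from them in strain, medium and derivation, so that those differences cannot be told apart from cell identity in any comparison with XEN cells. No RNA is measured in the table, so cell identity was not checked by marker expression.

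Basement membranes are thin sheets of extracellular matrix that line epithelia. Laminin-111, the laminin of the early embryo, is a trimer of the α1, β1 and γ1 chains made from Lama1, Lamb1 and Lamc1. The network of type IV collagen is built from α1 and α2 chains, whose genes Col4a1 and Col4a2 sit head to head and are transcribed away from a shared promoter region. SPARC is a secreted glycoprotein that binds collagen. Primitive endoderm and the parietal endoderm derived from it secrete these proteins in large amounts, and parietal endoderm lays down Reichert's membrane. GATA6 and SOX17 are transcription factors of the primitive endoderm, whereas OCT4, SOX2 and ESRRB are pluripotency factors of ES cells.

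To show what the strongest binding looks like at the level of DNA, the 121 bases centered on the GATA6 summit are given for 6 regions that the values below turn on. They are printed 5′ to 3′ on the plus strand of GRCm38/mm10 from RefSeq, and the capitals mark the GATA core (GATA, or TATC on the other strand) and the SOX core (ATTGT, or ACAAT on the other strand). The regions are the strongest GATA6 site of the Col4a1 side (chr8:11308843-11308963), the site of largest gain in Col4a2 (chr8:11367571-11367691), the site upstream of Lama1 (chr17:67685606-67685726), the strongest site of the Lamb1 window (chr12:31229544-31229664), that of the Lamc1 window (chr1:153376982-153377102), and the strongest site inside Sparc (chr11:55414983-55415103).
Col4a1 intron: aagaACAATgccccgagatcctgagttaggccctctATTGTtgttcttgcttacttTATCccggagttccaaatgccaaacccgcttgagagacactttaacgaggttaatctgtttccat
Col4a2 intron: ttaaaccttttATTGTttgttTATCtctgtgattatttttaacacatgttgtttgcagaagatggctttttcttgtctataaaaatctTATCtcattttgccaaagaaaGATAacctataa
Lama1 upstream: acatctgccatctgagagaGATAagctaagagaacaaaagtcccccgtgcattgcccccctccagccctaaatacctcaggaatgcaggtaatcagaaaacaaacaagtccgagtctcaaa
Lamb1 upstream: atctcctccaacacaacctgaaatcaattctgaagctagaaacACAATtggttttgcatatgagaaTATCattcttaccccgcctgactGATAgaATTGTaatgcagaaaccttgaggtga
Lamc1 upstream: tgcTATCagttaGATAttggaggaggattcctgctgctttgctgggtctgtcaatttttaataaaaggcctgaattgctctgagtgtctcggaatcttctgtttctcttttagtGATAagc
Sparc intron: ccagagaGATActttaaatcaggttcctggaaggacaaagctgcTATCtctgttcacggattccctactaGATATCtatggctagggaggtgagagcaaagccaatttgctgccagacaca

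Each of these 6 windows held at least 1 GATA core, with 4 in the Sparc window (GATATC there holds both orientations in overlap) and 3 each in those of Col4a2 and Lamc1. The SOX core was found in 3 of the 6. Over all 117 members, 103 (88.0%) had a GATA core in the 121 bases around the summit, against 85.4% of all regions of the table. For the longer word AGATAA, searched on both strands and containing the GATA core, the counts were 45 members (38.5%) against 45.1%. The SOX core lay in 41 members (35.0%) against 35.4%, and the octamer ATGCAAAT (ATTTGCAT on the other strand) in 1 member (0.855%) against 2.12%. The members were thus close to the rest of the table in their share of GATA and SOX cores.

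The best matches to the authors' motif models, which were searched over the whole region and could lie far from the summit, are shown with 8 flanking bases for the factor each region is described for below. Capitals mark the match and each is printed on its own strand. The GATA6 matches lie at chr8:11309383-11309411 (minus strand) in Col4a1, chr8:11367646-11367674 (minus) in Col4a2, chr17:67685613-67685641 (plus) at Lama1, chr12:31229385-31229413 (minus) at Lamb1, chr1:153378149-153378177 (plus) at Lamc1 and chr11:55414609-55414637 (plus) in Sparc. The SOX17 match of Col4a1 lies at chr8:11308777-11308801 (minus), its ESRRB match at chr8:11309494-11309520 (plus), and the OCT:SOX match of Lamc1 at chr1:153376904-153376934 (plus).
Col4a1 intron, GATA6: tacgccatCAGAGATAAGGAGtgcccaac
Col4a2 intron, GATA6: ttggcaaaATGAGATAAGATTtttataga
Lama1 upstream, GATA6: ccatctgaGAGAGATAAGCTAagagaaca
Lamb1 upstream, GATA6: cttcttttCTAAGATAAGATAttaacata
Lamc1 upstream, GATA6: agctgattCCCAGATAAGGACtcagtctg
Sparc intron, GATA6: acaaatggAAGGGATAAGAAAcatcaaag
Col4a1 intron, SOX17: ccatgtctGCCATTGTCcagcacac
Col4a1 intron, ESRRB: gagagattTCAAGGTCACTgtggaatg
Lamc1 upstream, OCT:SOX: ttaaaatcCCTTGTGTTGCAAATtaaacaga

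The GATA6 matches share the core AGATAAG in 5 of the 6 regions and GGATAAG in Sparc, whose best GATA6 score of 9.28 was below the scores of 12.5 to 13.8 in the others. Per kb of sequence the members held 3.37 GATA6 motif matches against 4.04 over all regions, 2.31 SOX17 matches against 2.21, 2.35 OCT:SOX matches against 2.64 and 0.708 ESRRB matches against 0.796. The densest in SOX17 matches was the Col4a1/Col4a2 window, with 2.90 per kb, and the least dense was Sparc, with 1.85. These are descriptions of the letters in the regions, and a match is not evidence of contact.

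Of the 117 regions, 55 lay inside a member gene, 13 in another annotated gene and 49 between genes, with 66 in introns and 2 in exons. For 77 of them the nearest annotated start of any gene was that of a member gene. Only 3 summits lay within 1 kb of a member's start and 12 within 5 kb. The layout differed between loci: 18 of 23 Col4a1/Col4a2 regions lay inside the collagen genes, whereas 15 of 17 Lamb1 regions were intergenic. Other genes share these windows, among them Slc26a3 downstream of Lamb1, Arhgap28 and Lrrc30 beside Lama1, and Fat2, Atox1 and G3bp1 around Sparc, and binding in a window is not thereby assigned to the member gene. Regions of 1 window share their DNA surroundings and are not replicates of a condition.

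All values below are RPM, the reads on a region relative to the depth of the library, which the authors deposited as a single value per condition pooled over its libraries. A change is the difference of log2(RPM + pseudocount), with the pseudocount at percentile 5 of the factor's values (0.193 RPM for GATA6, 0.192 for SOX17), and a region is counted as higher or lower when it passed 2-fold. Because low values were whole multiples of what 1 read is worth, the reads of the libraries behind most pooled columns could be separated, and library values are given where they are known. The depths so recovered ranged from 5.42 M to 69.4 M reads (M, mega) with a median of 15.3 M. Since RPM adds up reads over a whole region, wider regions gather more of it, and levels of different regions are not compared per length unless said. GATA6 before induction and OCT4 in XEN cells rest on 1 library each. GATA6 on day 4, SOX2 on day 4 and XEN input are labelled with 3 libraries but show the steps of 2, and ESRRB at 8 h and SOX17 at 16 h with 2 but show 1, so that what is called a library there may be a merge of them or leave 1 out. Separated libraries were tested with limma over all regions, with Benjamini-Hochberg adjustment, with 2 libraries per condition, leaving out the few regions whose reads had more than 1 solution (3 of the 117 members for SOX17 and 1 for OCT4). Every limma p below 0.05 printed for a single region was also below 0.05 in edgeR's quasi-likelihood test, with and without TMM scaling. The methods of the study describe independent chromatin preparations for most conditions, and neither they nor the labels say whether these came from separate cultures, so the p-values measure the spread between libraries. In bulk ChIP-seq, more cells that bind a site and more binding per cell cannot be told apart.

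GATA6 reached these loci within 8 h, mostly at distal sites, and its strongest early sites lay upstream of Lamb1 and Lamc1. Before Dox the 117 members had a median of 0.653 RPM of GATA6, close to the input median of 0.678, and at 8 h the median was 1.41 RPM. From day 0 to 8 h, 66 members rose past 2-fold (background 60.4% of all regions) and 1 fell (background 1.8%). The median change was 1.19 for the members and 1.38 for all regions, so that the first binding was no larger here than elsewhere. Among the loci the median change was 1.61 at Sparc, 1.42 at Col4a1/Col4a2, 1.30 at Lamb1, 1.18 at Lamc1 and 0.65 at Lama1. No replicate check exists for this comparison, since GATA6 on day 0 is 1 library.

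After the first 8 h, GATA6 signal rose past 2-fold at more members than it fell, while the table as a whole moved both ways. From 8 h to day 4 the median change was 1.07 over the members and -0.02 over all regions. Past 2-fold, 64 members were higher (background 30.9%) and 10 were lower (background 34.8%). In limma on separated libraries, 74 members were higher (background 35.3%) and 17 were lower (background 38.8%) at an adjusted p under 0.05. The gain was greatest at Lama1, with a median change of 1.57 and 23 of 26 regions higher in limma, and at Col4a1/Col4a2, with 1.35 and 17 of 23. It was 0.89 at Lamb1 with 10 of 17, and 0.75 at Lamc1 with 20 of 40. Sparc had a median change of -0.02, with 4 of 11 regions higher and 3 lower. Input also changed over this interval: when GATA6 was divided by the input of the same condition, an alternative chosen after seeing the data, the median change was 0.49 over the members and -0.25 over all regions, with 40 members higher past 2-fold (background 25%) and 19 lower (background 35.8%). On that scale the median was 1.07 at Lama1, 0.56 at Col4a1/Col4a2, 0.51 at Lamb1, 0.37 at Lamc1 and -0.70 at Sparc, where 3 regions were higher and 3 lower.

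**Figure D1:**
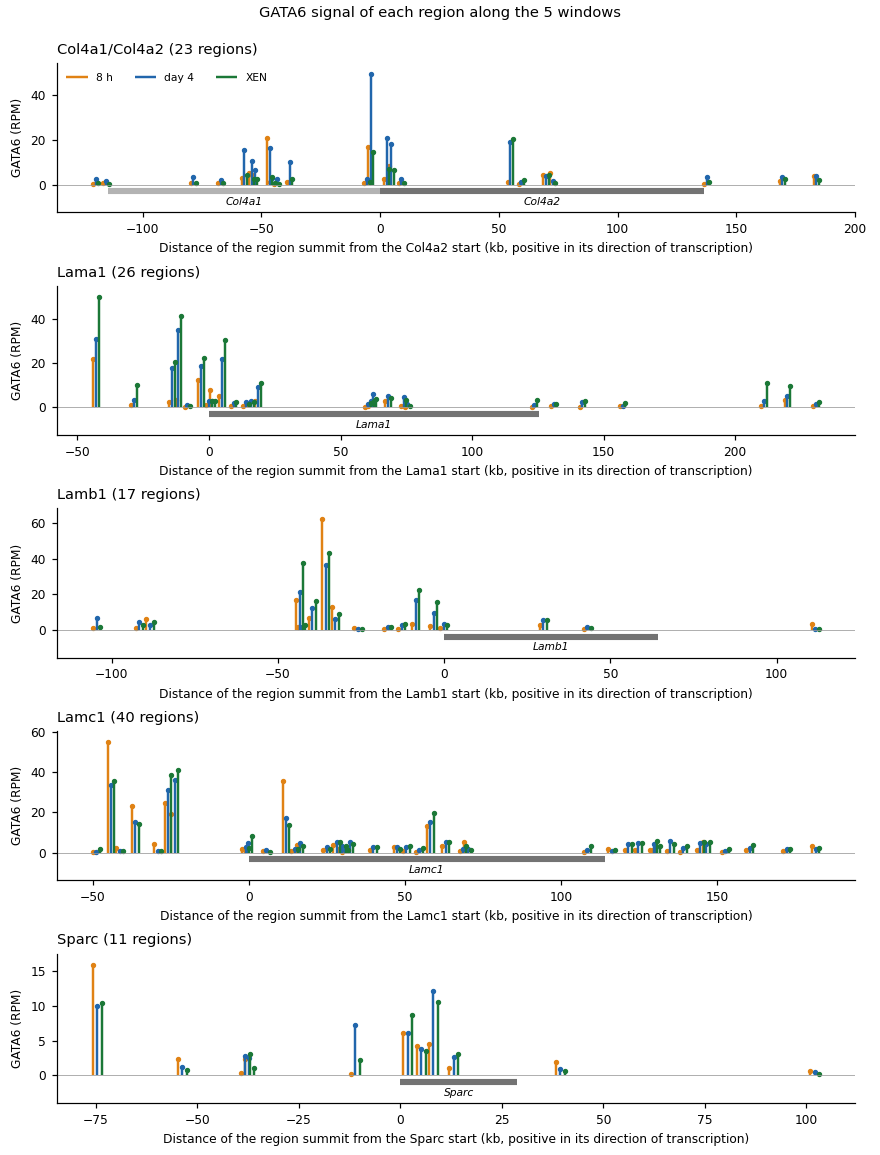
GATA6 signal in RPM (vertical axis) of each binding region against the distance of its summit from the start of a member gene in kb (horizontal axis, positive in the direction of transcription), for 8 h, day 4 and XEN cells, with gene bodies as grey bars; each line is the pooled value of a condition. The tallest 8 h lines stand upstream of Lamb1 (62.2 RPM) and Lamc1 (55.0 RPM), and the tallest day 4 line stands in Col4a1 (49.2 RPM).

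In the classes of GATA6 kinetics that the authors deposited, which were made by clustering these same GATA6 values, 45 members were early (38.5%, against 28.0% of all regions), 56 were late (47.9% against 33.6%) and 16 were transient (13.7% against 38.4%). No region of the Lama1 window was transient, whereas 5 of 11 Sparc regions were. Weighted by covered base pairs, early regions made up 59.96% and late regions 30.87%, against 38.52% and 25.54% of all regions, the early regions being wider. In the authors' classes of undifferentiated ES cells, 78 members (66.7%) were closed chromatin against 61.3% of all regions. The share was 22 of 23 at Col4a1/Col4a2 and 19 of 40 at Lamc1. Facultative heterochromatin was the state of 34 members (29.1% against 22.4%). Only 4 members were in the accessible class, among them the regions at the starts of Lama1 and Lamc1.

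The collagen IV genes held the region with the highest SOX17 signal of the whole table. It lies in an intron of Col4a1, 3.9 kb from its start (chr8:11308478-11310403), was closed on day 0 and carried a poised enhancer state. GATA6 there was 1.63 RPM on day 0, 16.8 at 8 h, 24.5 at 16 h, 20.3 on day 1, 24.7 on day 2, 49.2 on day 4 and 14.4 in XEN cells. The day 4 libraries were at 43.6 and 54.7 RPM, above both 8 h libraries, and limma gave a rise of 1.53 ± 0.25 (SE) from 8 h to day 4 with an adjusted p of 6.32e-06. SOX17 at this region was 4.99 RPM on day 0, 4.12 at 8 h, 8.4 at 16 h, 33.2 on day 1, 53.0 on day 2 and 114 on day 4, and ranked first of 42403 regions on day 2 and day 4. The pluripotency factors were present there before induction and diverged after it. ESRRB ran from 18.9 RPM on day 0 to 31.4 at 16 h and 20.8 on day 2, then to 4.10 on day 4. SOX2 went from 10.4 RPM on day 0 to 37.0 on day 4, and OCT4 from 4.93 to 24.8. The input there also went from 1.99 RPM on day 0 to 6.53 on day 4, the second highest input of the table at that time, and GATA6 was 13.6 times the input at 8 h and 7.53 times on day 4.

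Next to the shared start of the collagen genes, the nearest region to either start lay 2.8 kb inside Col4a2 (chr8:11315171-11316298). GATA6 there rose at each time, from 0.817 RPM on day 0 through 2.499, 3.36, 5.51 and 7.86 at 8 h, 16 h, day 1 and day 2 to 20.8 on day 4. In limma its change from 8 h to day 4 was 2.99 ± 0.32 (SE, adjusted p = 2.58e-08), and SOX17 rose alongside from 1.72 RPM on day 0 to 47.6 on day 4. Farther into the gene, 54.8 kb from the start, the Col4a2 region with the largest GATA6 gain of the window (chr8:11367027-11368163) belonged to the late class. It had 1.12 RPM of GATA6 at 8 h, 4.78 on day 2, 19.1 on day 4 and 20.5 in XEN cells. Its SOX17 was 0.462 RPM at 8 h and 27.9 on day 4, and OCT4 and SOX2, at 0.762 and 0.832 RPM on day 0, came to 7.87 and 16.5 on day 4. By contrast, the early region 46.5 kb into Col4a1 (chr8:11265292-11267105) was already at 21.0 RPM of GATA6 at 8 h and stood at 16.1 on day 4. A transient Col4a2 region 72.7 kb from the start went from 5.19 RPM at 8 h to 1.78 on day 4, a fall of 1.44 on the log2 scale in limma (adjusted p = 0.000436).

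Lama1, whose product is the α chain that organizes laminin-111, had its main sites upstream of the gene and in its first introns. At 11.6 kb upstream (chr17:67684408-67686583) GATA6 was 0.817 RPM on day 0, 3.16 at 8 h, 6.995 at 16 h, 15.7 on day 1, 20.2 on day 2, 35.0 on day 4 and 41.3 in XEN cells. The 8 h libraries (2.996 and 3.32 RPM) and the day 4 libraries (32.9 and 37.0 RPM) did not overlap, with a limma change of 3.39 ± 0.33 (SE, adjusted p = 6.89e-09). SOX17 went along from 1.65 RPM on day 0 to 13.9 on day 1 and 36.8 on day 4. OCT4 was 1.55 RPM at 8 h and 13.7 on day 2, and SOX2 1.69 at 8 h and 21.7 on day 4, at a region that the authors class as ectopic for the pluripotency factors. The site 43.0 kb upstream (chr17:67653269-67655063), whose nearest start is that of Lrrc30, was early instead. GATA6 there was 21.8 RPM at 8 h, 30.9 on day 4 and 49.9 in XEN cells, the highest XEN value of all 117 members. In the first part of the gene, the region 4.9 kb from the start went from 4.94 RPM at 8 h to 21.7 on day 4 and 30.5 in XEN cells.

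The promoter of Lama1 held a narrow region of 361 bp, 0.1 kb from the start. It had 1.202 RPM of GATA6 at 8 h and 2.74 on day 4, with limma giving a rise of 1.03 (adjusted p = 0.0181). Its GATA6 was 2.77 times the input at 8 h and 3.34 times on day 4. Per kb of region its level was 3.33 RPM at 8 h and 7.58 on day 4, against 1.81 and 7.95 RPM per kb in the region of 2724 bp that lies 4.9 kb from the start, so that the lower total at the promoter went with its width. The active enhancer region 1.3 kb into the gene went the other way, from 7.82 RPM at 8 h to 2.97 on day 4, and was the only one of the 26 regions of this window that was lower in limma (change of -1.34, adjusted p = 0.000121). Far downstream, an intron of Arhgap28 held a region 210.8 kb from the Lama1 start with 0.767 RPM of GATA6 at 8 h, 2.81 on day 4 and 11.1 in XEN cells. Its XEN libraries (10.6 and 11.5 RPM) stood well above the day 4 libraries (1.95 and 3.66 RPM).

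The window of Lamb1, which encodes the β chain, held the region with the highest GATA6 signal at 8 h of all the loci. For 5 of its 17 regions the nearest annotated start was that of Lamb1, and the leading region was not among them. The region 35.6 kb upstream (chr12:31227881-31230421) is intergenic, was closed on day 0 and carried a primed enhancer state. GATA6 there was 0.817 RPM on day 0, 62.2 at 8 h (rank 4 of the table), 56.6 at 16 h, 35.2 on day 1, 43.2 on day 2, 36.5 on day 4 and 43.3 in XEN cells. It fell by 0.77 on the log2 scale from 8 h to day 4 in limma (SE 0.22, adjusted p = 0.00312), with 8 h libraries at 51.4 and 72.9 RPM and day 4 libraries at 29.2 and 43.7. OCT4 was 28.4 RPM there before induction and 57.6 on day 2, the highest OCT4 value of the table on day 2, and then 32.6 on day 4 and 3.999 in XEN cells. SOX2 was 23.03 RPM at both day 0 and day 4, with 34.3 on day 2, and SOX17 went from 6.81 RPM on day 0 to 44.1 on day 2 and 32.8 on day 4. This was thus a site already bound by OCT4 and SOX2 that GATA6 occupied at once and SOX17 later.

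Other Lamb1 sites followed different courses. The region 8.6 kb upstream had the largest rise of the window, with 3.50 RPM of GATA6 at 8 h, 17.1 on day 4 and 22.4 in XEN cells, and a limma change of 2.22 ± 0.33 (SE, adjusted p = 2.62e-06). At 43.5 kb upstream GATA6 was 16.8 RPM at 8 h, 21.2 on day 4 and 37.8 in XEN cells. A region 104.6 kb upstream peaked midway, with 1.43 RPM at 8 h, 9.27 on day 2, 6.98 on day 4 and 1.603 in XEN cells. OCT4 there rose from 1.45 RPM on day 0 to 14.8 on day 2, a change of 3.76 ± 0.31 (SE) from 8 h in limma with an adjusted p of 3.998e-08. The promoter region, 0.2 kb from the start, had 1.21 RPM of GATA6 at 8 h and 3.64 on day 4.

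Lamc1, which encodes the γ chain, had a cluster of 4 strong sites between 23.8 and 44.3 kb upstream, with 2 weaker, transient regions among them. The leading region at 44.3 kb (chr1:153376278-153378779) had 1.31 RPM of GATA6 on day 0, 55.0 at 8 h, 39.9 at 16 h, 35.3 on day 1, 37.7 on day 2, 33.6 on day 4 and 35.8 in XEN cells. It fell by 0.71 on the log2 scale from 8 h to day 4 in limma (SE 0.20, adjusted p = 0.00238), and no library at 8 h (51.9 and 57.97 RPM) overlapped those of day 4 (29.8 and 37.35 RPM). Like the leading Lamb1 site it was bound before induction, with 20.2 RPM of OCT4 and 31.8 RPM of SOX2 on day 0, and it was in the active enhancer class. The neighbors behaved differently: at 23.8 kb GATA6 went from 19.1 RPM at 8 h to 36.0 on day 4 (limma change of 0.92, adjusted p = 0.00244), and at 26.0 kb from 24.6 to 31.2 RPM (adjusted p = 0.164 in limma). The region at 26.0 kb had the highest SOX17 of this window, with 47.3 RPM on day 4 and 38.8 in XEN cells. The transient region at 29.3 kb went from 4.36 RPM of GATA6 at 8 h to 0.785 on day 4, a fall of 2.22 on the log2 scale (limma, adjusted p = 5.88e-06).

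The Lamc1 promoter region, 0.2 kb from the start, was accessible on day 0 and gained GATA6 slowly, with 1.36 RPM at 8 h, 4.32 on day 2, 4.69 on day 4 and 8.11 in XEN cells. Its change from 8 h to day 4 was 1.66 ± 0.39 (SE, limma, adjusted p = 0.000573). Input there also rose, with 0.781 RPM at 8 h, 2.23 on day 4 and 2.66 in XEN cells. GATA6 was 1.74, 2.10 and 3.05 times the input in these conditions. At the far end of the window, a late region 134.9 kb from the Lamc1 start had 0.724 RPM of GATA6 at 8 h and 5.66 on day 4, and its SOX17 went from 1.77 RPM on day 1 to 13.8 on day 4.

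Sparc was the locus whose highest RPM was the lowest of the 5, with no GATA6 value above 18.33 RPM in the Dox course or in XEN cells. Its strongest site inside the gene, 8.1 kb from the start (chr11:55414124-55415614), had 1.14 RPM on day 0, 4.47 at 8 h, 7.39 at 16 h, 7.42 on day 1, 7.22 on day 2, 12.2 on day 4 and 10.6 in XEN cells. The rise from 8 h to day 4 was 1.39 ± 0.30 (SE, limma, adjusted p = 0.000185). The region nearest to the start, 1.8 kb inside the gene, showed no such gain, with 6.14 RPM at 8 h, 6.07 on day 4 and 8.74 in XEN cells (limma change of -0.02, adjusted p = 0.944). The highest value of the window belonged to an intron of G3bp1, 74.6 kb upstream of Sparc, with 16.0 RPM at 8 h, 18.33 at 16 h and 9.95 on day 4. Per kb of region it had 14.4 RPM at 8 h. The leading Lamb1 and Lamc1 sites had 24.5 and 22.0 RPM per kb at that time. The Lama1 region 43.0 kb upstream had 12.1 and the Col4a1 region 46.5 kb into the gene 11.6. The late region 11.1 kb upstream had the largest gain of all 117 members, from 0.246 RPM at 8 h to 7.32 on day 4 (limma change of 4.10 ± 0.39 SE, adjusted p = 3.92e-09), and stood at 2.15 in XEN cells.

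**Figure D2:**
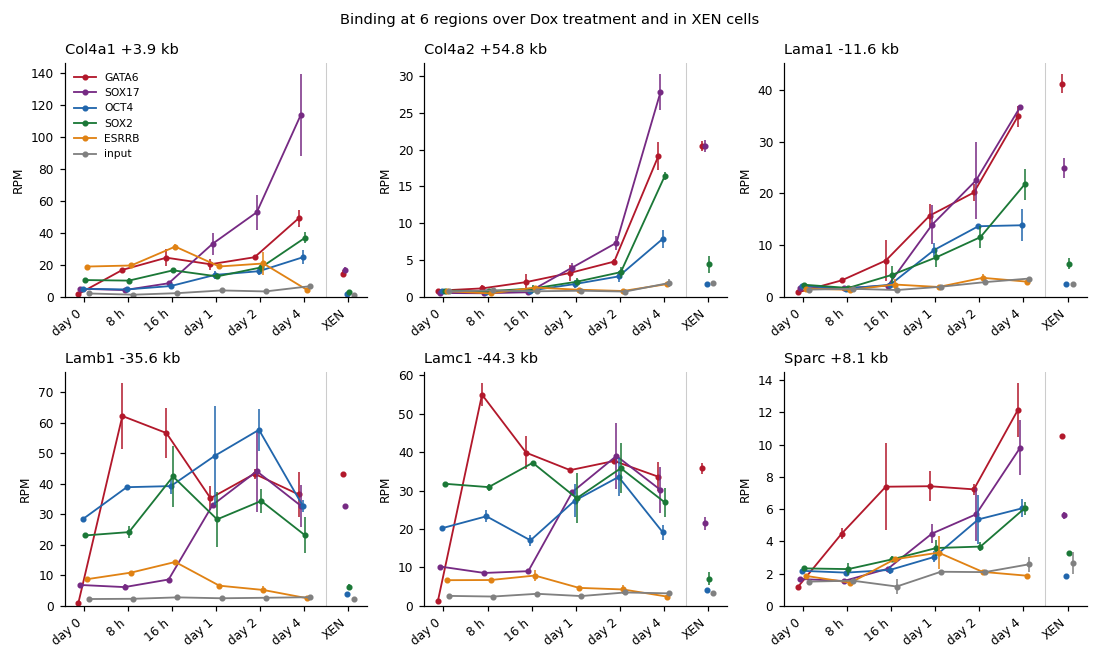
Pooled RPM (vertical axis, linear) of GATA6, SOX17, OCT4, SOX2, ESRRB and input at 6 regions from day 0 to day 4 of Dox, and in XEN cells to the right of the grey line; vertical lines span the 2 separated libraries where these are known. Within the Dox course, GATA6 peaks at 8 h in the Lamb1 and Lamc1 regions (62.2 and 55.0 RPM) and on day 4 in the Col4a1, Lama1 and Sparc regions, where SOX17 is also highest on day 4. At the Lama1 region GATA6 is higher in XEN cells than on day 4.

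SOX17 bound 84 of the 117 members (71.8%) in the authors' peak classes, against 44.5% of all regions, with 20 of 23 at Col4a1/Col4a2, 14 of 17 at Lamb1, 8 of 11 at Sparc, 18 of 26 at Lama1 and 24 of 40 at Lamc1. From day 0 to day 1 its median change was 0.81 over the members and 0.49 over all regions, with 45 members higher (background 25.8%) and 0 lower past 2-fold (background 1.52%). From day 1 to day 4 the median change was 1.01 against 0.23, with 59 higher (background 25.9%) and 0 lower (background 11.5%). In limma 64 of 114 tested members were higher (background 28.6%) and 0 lower (background 12.9%) over that interval. With TMM scaling in edgeR the counts were 57 higher (background 24.5%) and 4 lower (background 22.1%). The 5 loci all shared the direction, with median changes from day 1 to day 4 of 1.26 at Col4a1/Col4a2, 1.14 at Lama1, 0.91 at Lamb1, 0.86 at Lamc1 and 0.74 at Sparc. Across the 117 regions, SOX17 and GATA6 levels on day 4 had a Spearman rho of 0.917, against 0.926 over all 42403 regions. The points share their libraries and the width of each region, and the values are a description. Before Dox, the highest SOX17 antibody signal of the members was 10.2 RPM, at the Lamc1 region 44.3 kb upstream. That region was also the highest member in SOX2 on day 0, with 31.8 RPM. The study reports that GATA6 activates Sox17 expression after induction. What the SOX17 antibody signal on day 0 rests on was not tested.

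OCT4 and SOX2 signal passed 2-fold upward at more members than downward during the 4 days of Dox. From day 0 to day 2 the median OCT4 change was 0.67 over the members and 0.23 over all regions, with 29 members higher past 2-fold (background 14.6%) and 1 lower (background 4.86%). From day 2 to day 4 it was 0.22 against -0.17, with 15 higher (background 6.92%) and 2 lower (background 17.5%). Divided by input, the OCT4 median over this later interval turned to -0.11 for the members, against -0.30 for all regions, with 8 higher (background 4.15%) and 0 lower (background 19.5%). With input subtracted it was 0.16, with 25 higher (background 12.4%) and 10 lower (background 31.9%). Limma on separated libraries, from 8 h to day 2, gave 36 of 116 tested members higher (background 18.8%) and 2 lower (background 10.6%), and edgeR with TMM scaling 22 higher (background 13.6%) and 4 lower (background 15%). Between day 2 and day 4, limma gave 17 higher (background 7.28%) and 5 lower (background 18.4%), and the TMM scaling 29 higher (background 12.6%) and 1 lower (background 16.8%). Both comparisons use the day 2 libraries. More members were called higher than lower in both intervals, with and without TMM scaling.

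SOX2 had a median change of 0.34 from day 0 to day 2 over the members, against 0.00 over all regions, with 15 higher (background 6.01%) and 1 lower (background 6.7%). From day 2 to day 4 the values were 0.69 against 0.03, with 42 higher (background 15.3%) and 2 lower (background 17%). From 8 h to day 2, limma gave 13 higher (background 5.46%) and 1 lower (background 7.23%), and edgeR with TMM scaling 20 higher (background 7.76%) and 1 lower (background 8.92%). Between day 2 and day 4, limma had 40 members higher (background 14.6%) and 2 lower (background 16.5%), and with TMM scaling 52 were higher (background 19.1%) and 5 lower (background 21.3%). Without TMM, edgeR gave 2 lower (background 10.6%) in the earlier and 4 lower (background 20.3%) in the later interval. Members called higher in that setting, with backgrounds of 6.28% and 19.3%, are not counted here, so no comparison with those shares is made. By window, the gain from day 2 to day 4 was most frequent at the collagen genes, where 16 of 23 regions were higher in limma, against 8 of 26 at Lama1, 5 of 17 at Lamb1, 10 of 40 at Lamc1 and 1 of 11 at Sparc. Divided by input, SOX2 was higher past 2-fold between day 2 and day 4 at 21 members (background 10.4%) and lower at 4 (background 18.5%). The order of the windows was then not kept, with 5 of 23 higher at the collagen genes, 4 of 26 at Lama1, 3 of 17 at Lamb1, 8 of 40 at Lamc1 and 1 of 11 at Sparc. On day 4 the member with the highest SOX2 antibody signal, Col4a1 3.9 kb from the start, was also the highest in SOX17. The study reports that expression of the pluripotency factors, SOX2 among them, falls during this induction. What the SOX2 antibody signal on day 4 rests on was not tested.

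ESRRB counts depended on how input was treated. As deposited, its median change was -0.10 from day 0 to day 2, with 2 regions higher (background 0.37%) and 2 lower (background 11.4%), and -0.04 from day 2 to day 4, with 3 higher (background 0.481%) and 6 lower (background 10.8%). In limma 0 members were higher (background 0.0613%) and 3 lower (background 5.94%) between day 2 and day 4, and edgeR with TMM scaling gave 5 higher (background 0.719%) and 3 lower (background 6.37%). With input subtracted, the median was -0.31 from day 0 to day 2, with 11 members higher (background 4.7%) and 30 lower (background 26.6%), and -0.19 from day 2 to day 4, with 6 higher (background 3.08%) and 34 lower (background 25.4%). Divided by input, 0 were higher (background 0.932%) and 15 lower (background 15.6%) in the later interval. The Col4a1 region 3.9 kb from the start and the Lama1 region 43.0 kb upstream, with 20.8 and 10.3 RPM of ESRRB on day 2 and 4.10 and 2.17 on day 4, were among those that fell past 2-fold.

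The authors class 22 members as bound by pluripotency factors on day 0 (18.8%, against 20.9% of all regions) and 27 as ectopic, meaning bound by them only after induction (23.1% against 16.6%). Sparc had no region bound before Dox and 4 of 11 ectopic regions, whereas Lamc1 had 10 of 40 bound before Dox and 4 ectopic. In XEN cells, where OCT4 rests on 1 library, the median OCT4 signal over the members was 0.7998 RPM beside an input median of 0.742, and the highest was 4.93 RPM at the Lamc1 region 23.8 kb upstream. The highest SOX2 antibody signal of the members in XEN cells, 8.27 RPM, was at that same region, where the XEN input was 3.96 RPM.

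**Figure D3:**
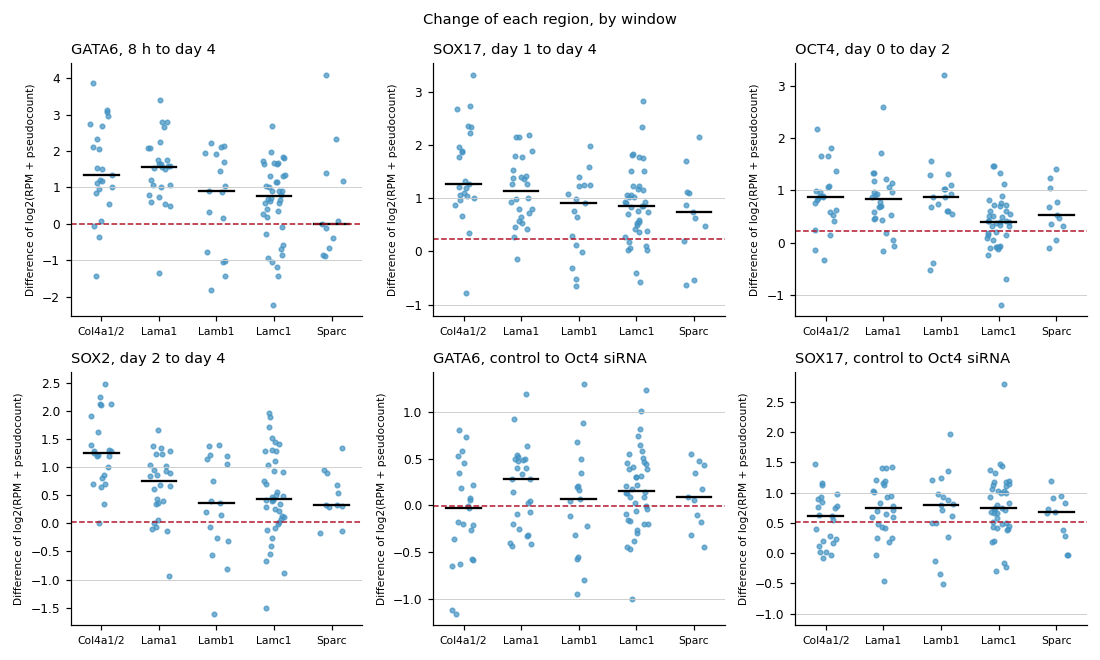
Difference of log2(RPM + pseudocount) of each region (points, jittered sideways) in 6 comparisons, by window; black bars are medians of the window, the red dashed line is the median of all 42403 regions, and grey lines mark 2-fold. The window medians of GATA6 from 8 h to day 4 lie above the red line at the collagen and laminin loci and on it at Sparc (-0.02 for both), and those of SOX17 from day 1 to day 4 lie above it in all 5.

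In XEN cells the collagen window parted from the other 4. From day 4 to XEN cells the GATA6 median change was -1.44 at Col4a1/Col4a2, against 0.20 at Lama1, 0.25 at Lamb1, 0.07 at Lamc1, -0.20 at Sparc and -0.03 over all regions. Past 2-fold, 20 members were lower (background 11.7%), of which 17 lay in the collagen window, and 5 were higher (background 14.4%). Limma on separated libraries gave 20 lower (background 12.5%), again with 17 at Col4a1/Col4a2, and 8 higher (background 16.5%), of which 5 lay at Lama1. This comparison shares its day 4 libraries with that from 8 h to day 4. SOX17 went the same way, with a median change of -2.49 at Col4a1/Col4a2 and between -0.60 and -0.19 at the other loci. Past 2-fold it was lower at 31 members (background 16.9%), 19 of them in the collagen window, and higher at 2 (background 6.25%). Limma gave 30 lower (background 17.1%), 19 of them at Col4a1/Col4a2, and 2 higher (background 6.4%), of 114 tested members, and edgeR with TMM scaling gave 28 lower (background 13.9%) and 4 higher (background 14.6%).

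Input chromatin in XEN cells was low over part of the same window, and its values stand beside these falls. From 11233885 to 11321948 on chromosome 8, which spans the first part of Col4a1 and the shared start up to a region 8.9 kb into Col4a2, 14 consecutive regions had less input in XEN cells than the mean of the ES cell times. In 13 of the 14 the XEN input was below that of every ES cell time, and 6 were lower past 2-fold, against 0.769% of all regions. Over the 14 the median input was 1.03 RPM as a mean of the ES cell times and 0.301 RPM in XEN cells, a median change of -0.95, with -2.34 at the lowest. The other 9 regions of the window had a median input change of 0.29 and none lower past 2-fold. In the other 4 windows no region was lower past 2-fold, and none of the 117 members was higher (background 2.53%). The extent of the stretch was set after its values were seen.

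Within the stretch of low XEN input, GATA6 changed by a median of -1.71 from day 4 to XEN cells and was lower past 2-fold at 14 of 14 regions, and SOX17 changed by -2.67 and was lower at 14. Outside it the medians were -0.72 with 3 of 9 regions lower for GATA6 and -1.14 with 5 of 9 for SOX17. When each factor was divided by the input of the same condition, an alternative chosen after seeing the data, the GATA6 change in the stretch was 0.03 with 1 region lower past 2-fold, and that over the whole window was 0.03 against -1.44 without the division. SOX17 relative to input remained lower, with a median of -1.17 in the stretch and 8 of 14 regions past 2-fold. In the 9 regions outside the stretch, the GATA6 median relative to input was -0.39, with 2 lower past 2-fold. That of SOX17 was -0.79, with 3 lower. Over all 42403 regions, 5459 were lower past 2-fold on this scale for GATA6 and 8072 for SOX17. At the Col4a1 region 3.9 kb from the start, GATA6 was 7.53 times the input on day 4 and 13.9 times in XEN cells. The XEN input there rests on 22 reads (95% Poisson interval 13.8 to 33.3), and that of the region 46.5 kb into Col4a1 on 5 reads. Ratios to XEN input in the stretch are thus imprecise. How the XEN input, the strain of the XEN cells (CD1 against C57BL/6 x 129/Sv) and the binding of the factors each take part in these lower values was not tested. The Col4a2 region 54.8 kb from the start lay outside the stretch and had GATA6 of 19.1 RPM on day 4 and 20.5 in XEN cells (limma change of 0.11, adjusted p = 0.864).

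**Figure D4:**
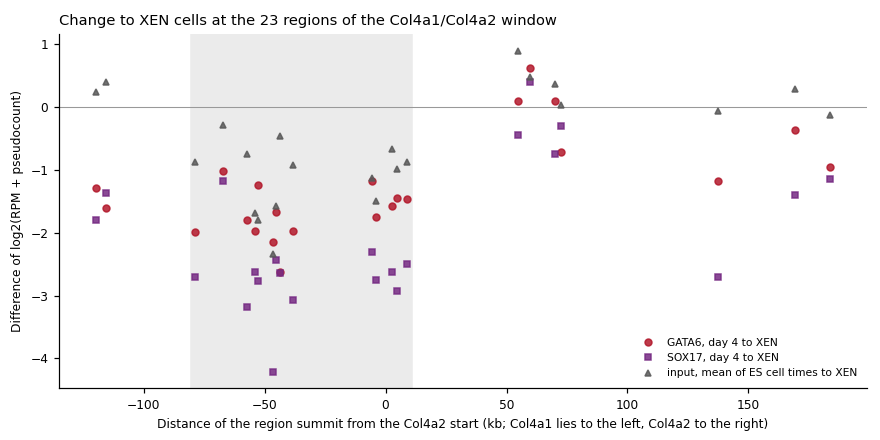
Difference of log2(RPM + pseudocount) to XEN cells (vertical axis) of GATA6 and SOX17 (from day 4) and of input (from the mean of the ES cell times) at the 23 regions of the Col4a1/Col4a2 window, against the distance of the summit from the Col4a2 start in kb (horizontal axis); the grey band holds the 14 consecutive regions with less input in XEN cells. Input lies between -2.34 and -0.28 in the band and between -0.12 and 0.90 outside it, and GATA6 and SOX17 are both below -1 at every region of the band.

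Outside the collagen window, several sites in the laminin windows had more GATA6 signal in XEN cells than on day 4. The Lama1 region 43.0 kb upstream (limma change of 0.69, adjusted p = 0.0178), the Lamb1 region 43.5 kb upstream (0.82, adjusted p = 0.0149) and the region in Arhgap28 (1.97, adjusted p = 0.000262) were among the 8 higher members. Input went up with it at the Lamb1 region, from 0.933 RPM on day 4 to 1.71 in XEN cells, where GATA6 was 22.7 and 22.1 times the input. In Arhgap28 input went from 0.735 to 1.34 RPM and GATA6 from 3.82 to 8.22 times the input, and at Lama1 input was 2.80 and 2.79 RPM. Lamb1 104.6 kb upstream and Sparc 11.1 kb upstream, with limma changes of -1.99 and -1.70, were lower, at adjusted p of 7.13e-05 and 0.00194. The input of these lower sites in XEN cells, 0.925 and 0.532 RPM, was within the range of the ES cell times.

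With Oct4 siRNA, GATA6 binding over the members was close to that with control siRNA. The median change of GATA6 was 0.13 over the members and -0.00 over all regions, and it ran from -0.20 to 0.46 between pairs of single libraries. Past 2-fold, 4 members were higher (background 7.77%) and 2 lower (background 5.28%). Limma called 3 higher (background 6.17%) and 3 lower (background 4.07%), and edgeR with TMM scaling 15 higher (background 14.4%) and 10 lower (background 11.8%). The 3 higher members lay at Lama1 (210.8 kb, 0.786 to 2.04 RPM), Lamb1 (43.0 kb, 0.613 to 1.80 RPM) and Lamc1 (134.9 kb, 1.35 to 3.44 RPM). The lower members included Col4a2 at 72.7 kb, with 3.35 RPM under control and 1.39 under Oct4 siRNA.

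At the leading Lamb1 site the control siRNA value of 87.7 RPM was the highest GATA6 value of the table in that condition, and it was 58.9 RPM with Oct4 siRNA. Library values were 76.9 and 98.5 RPM against 56.7 and 61.1 RPM and did not overlap, yet limma gave a change of -0.56 ± 0.34 (SE) with an adjusted p of 0.31, whereas edgeR with TMM scaling gave an adjusted p of 1.4e-07. The leading Lamc1 site had 51.65 RPM with control and 39.5 RPM with Oct4 siRNA (limma adjusted p = 0.543, with TMM in edgeR 0.0027). The Col4a1 site had 30.1 and 34.96 RPM (limma adjusted p = 0.741, with TMM in edgeR 0.132).

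With Oct4 siRNA, SOX17 passed 2-fold upward at 31 members, and few of them passed a test. The median change was 0.72 over the members and 0.52 over all regions, between 0.31 and 1.04 for pairs of single libraries, with 31 higher past 2-fold (background 20.8%) and 0 lower (background 0.441%). The 2 Oct4 siRNA libraries of SOX17 differed from each other by a median of 0.782 on the log2 scale over the members, which is as large as the change. In limma 2 members were higher (background 2.08%) and 0 lower (background 0.00472%), and with TMM scaling in edgeR 11 were higher (background 8.02%) and 4 lower (background 6.73%). The Lamc1 region at 134.9 kb had the clearest change, from 1.43 to 11.1 RPM (limma change of 2.76 ± 0.54 SE, adjusted p = 0.000396), and the other was Lamb1 at 43.0 kb, from 0.248 to 1.52 RPM (adjusted p = 0.0274). The control value at this Lamb1 region lay close to the SOX17 pseudocount of 0.192 RPM. At the Col4a1 region 3.9 kb from the start SOX17 was 41.5 RPM with control and 64.0 with Oct4 siRNA.

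Genes that take part in the same matrix were examined for comparison from a list of 41 that was set with earlier results of these data known and holds other laminin chains, nidogens, perlecan (Hspg2), agrin, collagen-modifying enzymes and integrins. Within 100 kb of 39 of them lay 341 GATA6 regions outside the 5 windows. From 8 h to day 4, GATA6 was higher past 2-fold at 115 of these (33.7%) and lower at 101 (29.6%), with a median change of 0.08, close to the -0.02 of all regions. SOX17 was higher from day 1 to day 4 at 83 (24.3%) and lower at 39 (11.4%), with a median of 0.30. The other matrix genes together were thus near the background of the table. Single sites were strong. The highest GATA6 value near Serpinh1, which encodes the collagen chaperone HSP47, was 21.4 RPM at 8 h, 44.5 on day 4 and 65.4 in XEN cells, each being the maximum over 9 regions at that time and not necessarily of the same region. Near Hspg2 the highest values were 24.4, 37.3 and 39.5 RPM, with 57.2 RPM of SOX17 on day 4. Near P3h2, a prolyl hydroxylase of collagen, GATA6 reached 1.61 RPM at 8 h, 12.5 on day 4 and 30 in XEN cells. Other genes of the list lost GATA6 from 8 h to day 4. Summed over regions, it went from 147.8 to 41.4 RPM near Itga6, from 72.2 to 35.3 near Lama5 and from 54.7 to 14.3 near Col18a1. Past 2-fold, 11 of 21 regions near Itga6 were lower and 2 higher. For Col4a5 and Col4a6, which encode other type IV collagen chains, no region was found.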

How the data were processed

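ChIP-seq signal of 5 factors and input was taken from a table of 42403 GATA6 binding regions with 105 columns, of which 14 hold accessibility and histone marks and were not used here; a column with the outcome of the authors' own DESeq2 comparisons was not used either. RPM values were deposited by the authors, who removed PCR duplicates by molecular identifiers, called peaks with MACS2 and pooled the libraries of a condition (96 labelled libraries, 45 of 47 conditions with a column). Per the submitters' processing notes, reads went through bcl2fastq, cutadapt, Bowtie2 and SAMtools onto mm10, with versions not given in the sources used here. Motif scores were deposited by the authors from a FIMO search. Classes of kinetics, accessibility and histone state are the authors'.

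Members are all regions whose GATA6 summit lies in the windows. Members, gene lists and comparisons were chosen with earlier results of these data known. Changes are differences of log2(RPM + pseudocount), with pseudocounts at percentile 5 of the values of each factor (0.1926 RPM for GATA6, 0.1922 SOX17, 0.1673 OCT4, 0.1947 SOX2, 0.1635 ESRRB, 0.1585 input), called past 2-fold without a test. Each pooled value is a sum of whole multiples of what 1 read of each library is worth. Whole reads were thus recovered in 36 columns with 2 such steps and 4 with 1 step (100% of values whole), and not in 5 columns with over 2. At least 99.34% of regions had 1 solution. These reads were tested with limma on log2(RPM + pseudocount), and with edgeR's quasi-likelihood test with and without TMM, all with Benjamini-Hochberg adjustment at 0.05. These tests were chosen after seeing the data and were not part of the planned design, which had none. For GATA6 from 8 h to day 4 the edgeR test called 76 of the 117 members higher and 18 lower. Its shares over all regions are not reported here, and those of limma were 35.3% higher and 38.8% lower. On simulated data for that comparison with 200 regions changed 4-fold, limma recovered 67% with 7 false calls and edgeR 74.5% with 9. On 4000 simulated regions, 100% were split to 1 solution. The separated libraries carry no replicate number.

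The regions named are, in each window, the 3 with the highest GATA6, the one nearest to each gene start, those highest in SOX17 (day 4 or XEN) and OCT4 (day 2), and those of largest rise or fall of GATA6 from 8 h to day 4 and between siRNAs with a mean of at least 1 RPM. One region that the rule names is not reported here. Coordinates and sequence are of mm10/GRCm38, the files' build, with RefSeq sequence and GENCODE vM21 genes. R 4.3.3, limma 3.58.1, edgeR 4.0.16, Python 3.11.15, numpy 2.4.6, pandas 2.3.3, scipy 1.17.1 and matplotlib 3.10.9 were used. Other pseudocounts, input subtraction or division, scaling, filters, thresholds and windows were tried as alternatives.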

Additional observations from a re-analysis of the deposited data

How the results depend on the processing

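No paired analysis was possible because the libraries separated from each pooled column carry no replicate number. Of the values that answer a comparison, 212 under alternatives were counted as having stayed, 69 moved and 1 reversed. To have stayed meant to lie within the spread or within 1.5 times. For medians of pairs of single libraries it meant only the same sign, whatever the size. Of other counts of regions past 2-fold or called, 251 stayed and 145 moved. Reversal was counted only for a median past 2-fold. Smaller medians that changed sign were counted by the size of the move, or as moved for pairs of single libraries. That of GATA6 from day 4 to XEN, close to 0, was 0.057 divided by input, 0.0046 relative to all regions, 0.018 in regions at or above the median and 0.093 without the collagen window, and that of ESRRB after day 2 was 0.034 within 20 kb of the genes. Where a value moved, the cause was not tested unless the setting itself states it.

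The 1 median past 2-fold that reversed was the GATA6 log2 change from day 0 to 8 h (1.19), which was -0.19 relative to all regions; it was 0.44 with a pseudocount 10 times larger, 1.95 with input subtracted, 1.47 in regions whose highest value was at or above the median and 2.57 as a ratio of sums. With the larger pseudocount, medians became 0.53 for GATA6 from 8 h to day 4, 0.31, 0.58 and -0.24 for SOX17 from day 0 to day 1, day 1 to day 4 and day 4 to XEN, 0.29 for OCT4 from day 0 to day 2, 0.15 and 0.34 for SOX2 before and after day 2, and 0.39 for SOX17 between siRNAs. With one 10 times smaller, SOX17 from day 0 to day 1 was 0.97 and OCT4 from day 0 to day 2 was 0.77. Input subtraction, which could not be run for the siRNA samples, gave 1.34, 1.46 and -0.65 for the 3 SOX17 steps, 1.05 for OCT4 and 0.57 for SOX2 from day 0 to day 2, and -0.31 and -0.19 for ESRRB before and after day 2. Division by input gave 0.49 for GATA6 from 8 h to day 4, 0.81 for SOX17 from day 1 to day 4, 0.50 and -0.11 for OCT4, 0.38 for SOX2 and -0.28 for ESRRB after day 2, so that OCT4 after day 2 (0.22 as deposited) changed sign. Relative to all regions, the SOX17 steps were 0.31, 0.78 and -0.24, OCT4 was 0.45 from day 0 to day 2, ESRRB was 0.18 and 0.14 and thus changed sign, and SOX17 between siRNAs was 0.20. As ratios of sums, GATA6 from 8 h to day 4 was 0.57, the SOX17 steps 1.56, 1.17 and -0.72, OCT4 0.96 and SOX2 0.51 from day 0 to day 2, and ESRRB -0.39 after day 2, which was -0.14 in the regions at or above the median. Without the Lamc1 window, SOX17 from day 0 to day 1 was 0.99, OCT4 0.86 and SOX2 0.55 from day 0 to day 2. Within 20 kb of the genes, OCT4 after day 2 was 0.51. By covered base pairs, the late class held 30.9%, the early class 59.96%, the sox17 class 84.3% and the ptf_d0 class 32.8% of the members, against 25.54%, 38.52%, 54.08% and 30.05% of all regions.

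With edgeR and TMM, members called higher and lower numbered 15 and 10 for GATA6 and 11 and 4 for SOX17 between siRNAs, 22 and 4 for OCT4 from 8 h to day 2, and 29 and 1 from day 2 to day 4; 4 were lower for SOX17 from day 1 to day 4 and 4 higher from day 4 to XEN, 20 higher for SOX2 from 8 h to day 2, 5 lower for SOX2 and 5 higher for ESRRB from day 2 to day 4. With edgeR and no TMM, SOX2 was lower at 2 members from 8 h to day 2 and at 4 from day 2 to day 4. Over pairs of single libraries, medians ranged from 1.04 to 1.2 for GATA6 from 8 h to day 4, -0.117 to 0.0472 from day 4 to XEN and -0.20 to 0.46 between siRNAs, from 0.83 to 1.16, -0.64 to -0.39 and 0.31 to 1.04 for SOX17 from day 1 to day 4, day 4 to XEN and between siRNAs, and after day 2 from 0.09 to 0.48 for OCT4, 0.46 to 0.87 for SOX2 and -0.0945 to 0.109 for ESRRB. The GATA6 sign from day 4 to XEN, the GATA6 sign between siRNAs and the ESRRB sign after day 2 thus depended on which library was left out. With 2 libraries per condition, small changes were not detectable.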

Other observations

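Among 11869 genes with at least 5 GATA6 regions within 100 kb, the summed GATA6 and SOX17 course over 12 points (6 conditions from 8 h to XEN cells for each factor) was most like the mean course of the 5 windows at Xrcc5, which encodes the DNA repair protein Ku80, with a Pearson r of 0.996 over 11 regions. Next were Cd4 and Gpr162, which lie beside each other and drew on 9 regions, with an r of 0.993, and Btbd18 and Selenoh, also neighbours, with an r of 0.992 over 15 regions. Each point is 1 pooled value of a factor in a condition, and the genes compared share those libraries, so that r is a description only.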
